A study of Mus musculus with 10 samples.

Results

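Loss of Gli2 and Gli3 was set against loss of Hand2 in the neural crest of the mandibular prominence (MNP), the paired swelling of the first pharyngeal arch that gives rise to the jaw below the mouth and to tongue tissue. The comparison holds 4 of the 10 samples of the series: 1 Gli2/3 cKO library (Gli2/3 cKO 3) and 3 Hand2 cKO libraries (Hand2 cKO 1, 2 and 3). Of the 10 samples, 6 were analysed here, and the remaining pair, WT 3 and WT 4, served as the level against which each mutant could be read. Genes were the readout: estimated read counts were summed per gene symbol, divided by the library total to give counts per 1000000 (CPM), and a gene was kept when it reached 1 CPM in 2 or more of the 4 mutant libraries. This left 13410 of the 22429 genes with a count in those 4 libraries. A gene was then described as outside when the Gli2/3 cKO library lay above the highest or below the lowest of the 3 Hand2 cKO libraries.

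All embryos were CD1 mice at embryonic day 10.5. Gli2/3 cKO embryos carried Gli2 f/f, Gli3 f/f and Wnt1-Cre+, Hand2 cKO embryos carried Hand2 f/f and Wnt1-Cre+, and WT embryos are labelled wild-type with no statement on Cre or floxed alleles. The Wnt1-Cre transgene, driven by the Wnt1 promoter, is thus present on both sides of the comparison. It recombines in premigratory neural crest cells (NCCs), whose descendants make up most of the arch mesenchyme, so the epithelium, the mesodermal core, vessels and blood of a dissected MNP keep intact alleles. The study gave adrenergic drugs to some pregnant dams to carry Hand2 mutants to later stages, and neither labels nor methods say whether the dams of these embryos received them, or how many embryos went into a library. The Gli2/3 cKO arm has 1 library and therefore no replicate check, and p-values measure only the spread between these libraries, which may be technical in part.

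Gli2 and Gli3 are zinc-finger proteins that carry the Hedgehog signal into the nucleus. When Sonic hedgehog binds its receptor Ptch1, Smoothened is released, processing of the Gli proteins into repressors is blocked and full-length Gli proteins activate targets such as Gli1 and Ptch1. Hand2 is a basic helix-loop-helix factor of the distal arch mesenchyme that acts downstream of endothelin signalling and pairs with E proteins on E-box sites. In the face, Hedgehog signals from the epithelium are known to maintain forkhead (Fox) genes in the adjoining mesenchyme, and Hand2 is known to set distal arch identity.

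Several forkhead genes lie side by side in clusters, and members of 1 cluster gave very different values here. The promoters of Foxf2, the gene called lower in Gli2/3 cKO, and of its neighbour Foxc1 are shown. Foxc1 in Gli2/3 cKO lay 1.14-fold below the nearest Hand2 cKO library, with a wide interval given below. The promoter of Syt6, which was high in Gli2/3 cKO and close to lost in Hand2 cKO, is shown with them. Each window runs from 250 bases before to 50 bases after the RefSeq start (GRCm38.p6): chr13:31625566-31625865 for Foxf2, chr13:31806396-31806695 for Foxc1 and chr3:103574995-103575294 for the first of 3 listed Syt6 starts, all on the plus strand. Capitals mark matches, on either strand, to CCTCC. The study took this as the least stretch of a low-affinity, divergent Gli-binding motif. It did so only within regions bound by both Gli3 and Hand2 that lacked the canonical motif, and such regions were not used here.
Foxf2: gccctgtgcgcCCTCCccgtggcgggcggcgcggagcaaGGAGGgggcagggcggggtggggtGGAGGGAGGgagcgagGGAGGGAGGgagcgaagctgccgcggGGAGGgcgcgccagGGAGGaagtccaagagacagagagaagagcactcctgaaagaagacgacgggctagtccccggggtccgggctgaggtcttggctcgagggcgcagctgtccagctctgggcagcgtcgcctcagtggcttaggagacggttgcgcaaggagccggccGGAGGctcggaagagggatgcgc
Foxc1: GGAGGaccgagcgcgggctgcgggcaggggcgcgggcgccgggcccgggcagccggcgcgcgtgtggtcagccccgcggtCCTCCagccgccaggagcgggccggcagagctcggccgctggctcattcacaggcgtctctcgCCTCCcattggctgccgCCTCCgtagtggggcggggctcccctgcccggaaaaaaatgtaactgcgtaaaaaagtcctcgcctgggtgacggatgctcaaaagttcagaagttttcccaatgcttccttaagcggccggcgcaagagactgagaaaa
Syt6: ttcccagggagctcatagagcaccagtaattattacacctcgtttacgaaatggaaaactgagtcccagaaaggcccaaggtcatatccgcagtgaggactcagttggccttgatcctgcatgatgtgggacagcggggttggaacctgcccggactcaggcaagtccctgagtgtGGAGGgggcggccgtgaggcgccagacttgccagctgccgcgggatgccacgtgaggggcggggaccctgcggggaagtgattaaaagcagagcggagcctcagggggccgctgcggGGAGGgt
The Foxf2 window holds 9 CCTCC matches, some of them sharing letters, the Foxc1 window 4 and the Syt6 window 2. Of the 32851 promoter windows in the same table, 0.962% hold at least 9 matches, 14.9% at least 4 and 45.7% at least 2. None of the 3 windows holds ACCACCC, the core letters of the canonical Gli motif, which 4.61% of all windows hold, or the E-box CATCTG, which 17.2% hold. These counts describe the letters in the windows and nothing about binding.

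The targeted genes check the labels. Hand2 (mm10, chromosome 8, 57320983 to 57324633, plus strand) had 148 CPM in Gli2/3 cKO, 13.3, 22.6 and 15.7 CPM in Hand2 cKO 1 to 3, and 181 and 221 CPM in the WT libraries. The 3 Hand2 cKO libraries were all low, and the Gli2/3 cKO library stood next to WT. The difference between the mutants was 8.6-fold, and the log2 fold change of Gli2/3 cKO over Hand2 cKO was 3.02 ± 0.33 (± SE, as for every log2 fold change below), which did not pass over all genes (edgeR, quasi-likelihood test with Benjamini-Hochberg adjustment, adjusted p = 0.142, with alternatives from 2.57e-10 to 0.278).

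Gli2 (chromosome 1, 118834132 to 119053619, minus strand) had 59.9 CPM in Gli2/3 cKO against 118, 71.2 and 123 CPM in Hand2 cKO and 126 and 111 CPM in WT. Gli3 (chromosome 13, 15463235 to 15730026, plus strand) had 82.4 CPM against 193, 101 and 138 CPM, with 182 and 153 CPM in WT. The Gli2/3 cKO library had the lowest value of all 6 for both, 57.6% and 57.1% of the Hand2 cKO mean, and Hand2 cKO 2 came nearest to it for both. The log2 fold changes were -0.85 ± 0.30 for Gli2 and -0.86 ± 0.35 for Gli3, and neither passed (edgeR, adjusted p = 0.937 for both, with alternatives for Gli2 from 0.0313 to 0.979). The counts cover the whole gene in mixed tissue and the position of the loxP sites was not used here, so neither deletion requires a level of 0.

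Depth and composition differed between libraries. Totals were 25421663 estimated counts in Gli2/3 cKO, 41165945 to 53326697 in Hand2 cKO, and 49545102 and 21420197 in WT. Hand2 cKO 2 stood apart: the slope of its log2 counts on log2 transcript length was -0.355, beside -0.00477 to 0.137 elsewhere, and 3.31% of its counts lay in pseudogenes, beside 1.99% to 2.29%. Y-linked genes were expressed in Gli2/3 cKO, Hand2 cKO 2 and WT 4, so sex was not balanced between the arms. Of the 4 listed Y-linked genes, 3 count among those at least 2-fold higher in Gli2/3 cKO. The Y-linked gene Ddx3y had 57.3 CPM in Gli2/3 cKO, 20.1 CPM in Hand2 cKO 2, and 0.131 and 0.292 CPM in Hand2 cKO 1 and 3. In every comparison without Hand2 cKO 2, sex and genotype therefore cannot be told apart. The neural crest mesenchyme markers Prrx1 (774 CPM in Gli2/3 cKO and 470 to 697 CPM in Hand2 cKO), Twist1 and Pdgfra were at high levels in every library, and only 2 of 14 listed Hox genes passed the filter, at 0.75 to 2.27 CPM in the mutants. The first arch forms in front of the domain of Hox expression.

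Across all genes, the Gli2/3 cKO library lay outside the Hand2 cKO range for 54.3% of the 13410 genes: 4419 genes (33.0%) were above all 3 Hand2 cKO libraries and 2869 (21.4%) below. With 1 library against 3, the smallest 2-sided permutation p is 0.5, so this count by itself separates nothing. The split also depends on scaling. With TMM factors (trimmed mean of M values) in place of plain totals, 3657 genes were above and 3552 below, and the median log2 difference of all genes moved by 0.067.

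A gap of at least 2-fold beyond the nearest Hand2 cKO library, with 0.1 CPM added to both, was met by 228 genes (1.70%), of which 98 (0.731%) were higher and 130 (0.969%) lower in Gli2/3 cKO. The filter treats the directions unequally, since a gene found at 1 CPM or more only in Gli2/3 cKO is not kept: 383 genes were set aside in this way, 134 of them 2-fold beyond, while 114 genes at 1 CPM or more in all 3 Hand2 cKO libraries and below it in Gli2/3 cKO stayed in. With no filter, 581 genes were 2-fold higher and 247 lower. Without Hand2 cKO 3, 355 genes met the gap. In the edgeR fit to all 6 libraries, 1 gene was called higher and 1 lower (0.00746% each, 0.0149% together), at an adjusted p below 0.05 and a fold above 1.5. At an unadjusted p below 0.05 there were 283 higher (2.11%) and 349 lower (2.60%). DESeq2 called 41 higher and 103 lower of 14481 genes.

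**Figure D1:**
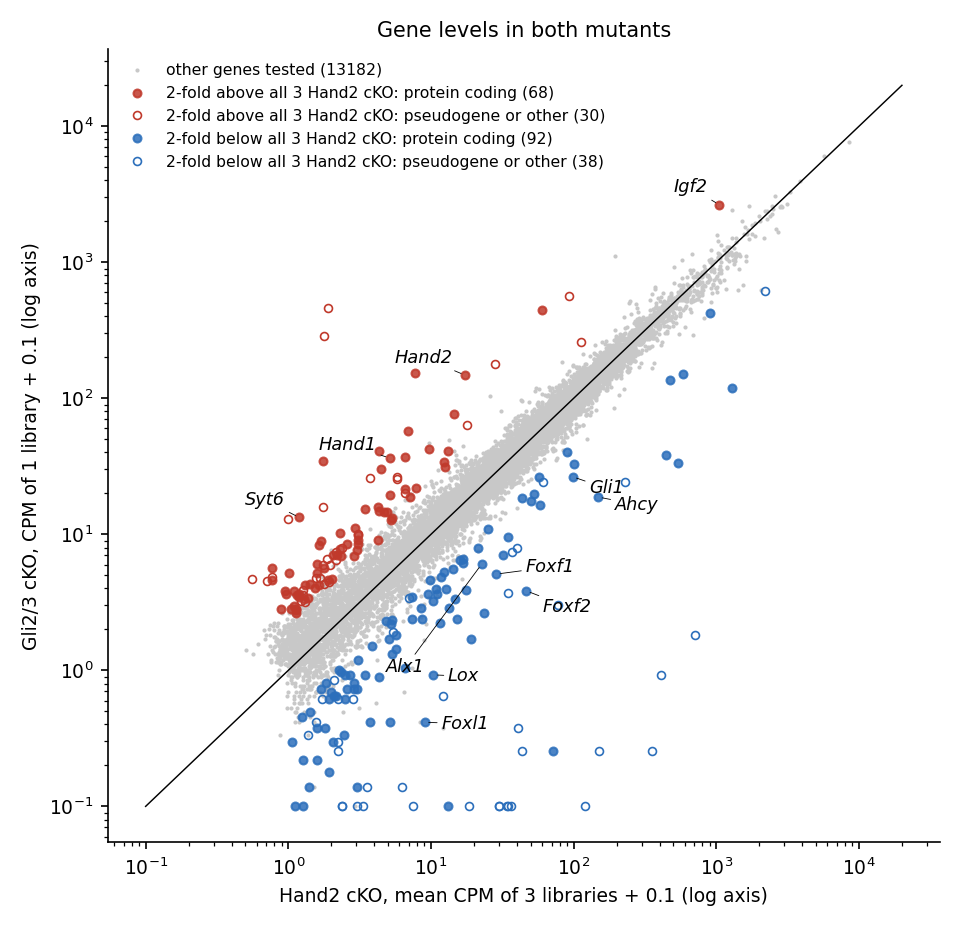
Level of each of the 13410 genes in the Gli2/3 cKO library (vertical axis) against the mean of the 3 Hand2 cKO libraries (horizontal axis), both as CPM + 0.1 on log axes with the line of equality; coloured points are at least 2-fold beyond the nearest Hand2 cKO library, filled for protein-coding genes (68 higher, 92 lower) and open for pseudogenes and other genes (30 and 38). Syt6, Hand1 and Hand2 lie far above the line, Foxf2, Foxf1 and Foxl1 far below it, and many of the most extreme low points are open.

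The gene called lower was Foxf2 (chromosome 13, 31625816 to 31631403, plus strand), which encodes a forkhead factor of mesenchyme beneath Hedgehog-expressing epithelium and is needed for palate formation. It had 3.74 CPM in Gli2/3 cKO, 47.4, 44.8 and 47.3 CPM in Hand2 cKO, and 33.3 and 34.9 CPM in WT. Here the Hand2 cKO libraries were a little above WT and the Gli2/3 cKO library stood alone at the bottom. The level differed 12.4-fold and the log2 fold change was -3.70 ± 0.20 (95% interval -4.20 to -3.20, edgeR adjusted p = 0.0143, alternatives 3.66e-44 to 0.0739). The call did not hold without Hand2 cKO 1, without Hand2 cKO 3, without either WT library or in a fit of the 4 mutant libraries alone, with adjusted p-values from 0.0574 to 0.0739 by edgeR in these fits.

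The distance of each mutant from WT was also tallied. For each of the 228 genes, both mutants were measured from the same 2 WT libraries on the log2(CPM + 0.1) scale, with the mean of 3 libraries for Hand2 cKO and a single library for Gli2/3 cKO. Of the 98 genes higher in Gli2/3 cKO, Hand2 cKO was farther from WT in 61 and Gli2/3 cKO in 37. Of the 130 lower genes, Gli2/3 cKO was farther in 114. These genes were chosen by the same mutant values, and the filter set aside 134 genes that were 2-fold higher in Gli2/3 cKO while it kept genes that were low there alone, so the tally is a description and the directions cannot be compared by it. Over both directions the share was 66.2%, and 56.3% without Hand2 cKO 3.

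**Figure D2:**
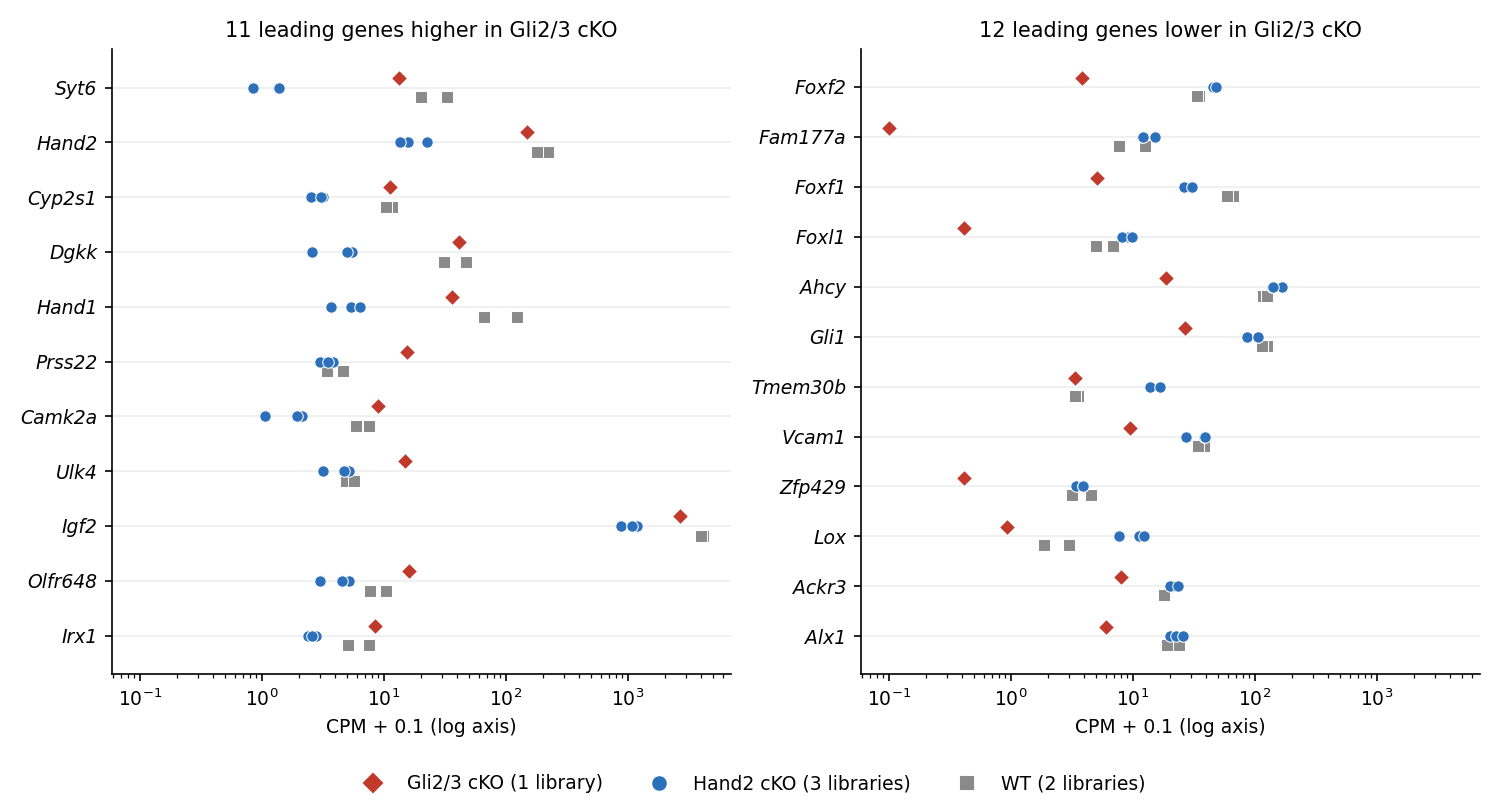
Level (CPM + 0.1, log axis) of 11 leading genes higher and 12 lower in Gli2/3 cKO, ordered from the top by the edgeR p-value, with 1 Gli2/3 cKO, 3 Hand2 cKO and 2 WT libraries as points. For Syt6, Hand2 and Hand1 the Gli2/3 cKO point lies nearer to the WT points than to the Hand2 cKO points, while for Foxf2, Foxf1, Foxl1 and Gli1 it lies apart from both other groups.

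Among genes higher in Gli2/3 cKO, those with the smallest p included Syt6, Hand2, Cyp2s1, Dgkk, Hand1, Prss22, Camk2a, Ulk4, Igf2, Olfr648 and Irx1, and none of these 11 passed over all genes by edgeR. Syt6 (chromosome 3, 103575231 to 103645569, plus strand), whose promoter is shown above, encodes a synaptotagmin of membrane trafficking. It had 13.2 CPM in Gli2/3 cKO, 1.29, 0.750 and 1.24 CPM in Hand2 cKO, and 20.1 and 32.7 CPM in WT. The groups did not overlap, and the Gli2/3 cKO library lay between Hand2 cKO and WT, 12.1-fold above the Hand2 cKO mean (log2 fold change 3.53 ± 0.35, edgeR adjusted p = 0.0965, alternatives 4.81e-13 to 0.172).

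Hand1, a basic helix-loop-helix factor of the distal midline that is related to Hand2, had 36.3 CPM in Gli2/3 cKO, 6.23, 3.61 and 5.27 CPM in Hand2 cKO, and 66.3 and 122 CPM in WT. The Gli2/3 cKO library was 7.20-fold above the Hand2 cKO mean and at 38.6% of the WT mean, so it lay below WT as well. Dgkk, a diacylglycerol kinase gene on the X chromosome, had 41.1 CPM against 4.84, 2.46 and 5.34 CPM, with 30.9 and 46.8 CPM in WT. Igf2, the imprinted fetal growth factor, had 2645 CPM against 1079, 876 and 1195 CPM, with 4001 and 4093 CPM in WT. For these genes and for the cytochrome P450 gene Cyp2s1 (11 CPM against 2.44 to 3.09 CPM) the Hand2 cKO libraries were the lowest of all 6.

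Prss22 and Ulk4 had another pattern, with the Gli2/3 cKO library high and both other groups low. Prss22, a serine protease gene, had 15.2 CPM in Gli2/3 cKO, 3.39, 3.73 and 2.89 CPM in Hand2 cKO, and 3.33 and 4.53 CPM in WT. Ulk4, which encodes a protein of the Unc-51-like kinase family, had 14.8 CPM against 4.58, 3.07 and 5.08 CPM, with 5.57 and 4.81 CPM in WT. Hand2 cKO and WT overlapped for both, and the single Gli2/3 cKO library was 387% and 284% of the WT mean. The kinase gene Camk2a, the olfactory receptor gene Olfr648 and the Iroquois homeobox gene Irx1 were mixed. Gli2/3 cKO was above both other groups for them, at 134% to 178% of the WT mean. Hand2 cKO was below both WT libraries, at 24.3% to 46.5% of the WT mean.

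Among genes lower in Gli2/3 cKO, the 12 with the smallest p were Foxf2, Fam177a, Foxf1, Foxl1, Ahcy, Gli1, Tmem30b, Vcam1, Zfp429, Lox, Ackr3 and Alx1, and only Foxf2 passed over all genes. Gli1, a Gli family member that is itself a standard target of Hedgehog signalling, had 26.4 CPM in Gli2/3 cKO, 106, 85.8 and 103 CPM in Hand2 cKO, and 114 and 126 CPM in WT. The Gli2/3 cKO library was at 26.9% of the Hand2 cKO mean and 22.0% of the WT mean, far below all 5 other libraries (log2 fold change -1.96 ± 0.20, 95% interval -2.44 to -1.47, edgeR adjusted p = 0.0974, alternatives 2.47e-17 to 0.343). Vcam1, a cell adhesion molecule, had 9.44 CPM against 38.6, 27.1 and 38.3 CPM, with 33.8 and 38.2 CPM in WT. Ackr3, a scavenging receptor for the chemokine Cxcl12, had 7.83 CPM against 23.1, 19.9 and 21 CPM, with 17.8 and 17.9 CPM in WT. For both the Hand2 cKO and WT libraries lay together and the Gli2/3 cKO library below them.

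Lox and Tmem30b showed the other pattern, in which the Hand2 cKO libraries stood above WT. Lox, the lysyl oxidase that cross-links collagen and elastin, had 0.826 CPM in Gli2/3 cKO, 12.3, 7.57 and 11 CPM in Hand2 cKO, and 2.89 and 1.77 CPM in WT. Tmem30b, a subunit of lipid flippases, had 3.23 CPM against 16.5, 13.8 and 13.6 CPM, with 3.23 and 3.41 CPM in WT. The Hand2 cKO mean was 441% of the WT mean for each gene, while Gli2/3 cKO was at 35.5% of it for Lox and 97.2% for Tmem30b.

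The forkhead genes lay mostly below. Of 12 listed forkhead genes of facial mesenchyme, 11 were tested, 9 lay below all 3 Hand2 cKO libraries (background 21.4%) and 7 were at least 2-fold below (background 0.969%), with none above. The list was chosen with earlier results of these data known. The median log2 fold change was -1.51, beside -0.010 over all genes tested, and it was -1.44 without Hand2 cKO 2. By DESeq2 5 of the 11 were called lower, and by edgeR 1.

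The strongest members lie in a pair of clusters. On chromosome 8, Foxf1 (121084386 to 121088144), Foxc2 (121116171 to 121118895) and Foxl1 (121127940 to 121130644) follow one another on the plus strand. Foxf1, a partner of Foxf2 in mesenchyme of the gut and face, had 5 CPM in Gli2/3 cKO, 30.5, 26.2 and 29.1 CPM in Hand2 cKO, and 58.7 and 66.2 CPM in WT. Foxl1, another mesenchymal forkhead gene of the gut and face, had 0.315 CPM, from 8 estimated counts, against 9.79, 8.06 and 8.92 CPM, with 6.78 and 4.86 CPM in WT. Foxc2, a regulator of mesenchyme and vessels, had 6.96 CPM against 35.1, 33.5 and 26.7 CPM, with 27.5 and 16.8 CPM in WT. All 3 genes were lowest in Gli2/3 cKO with no overlap, but only for Foxf1 was Hand2 cKO also below both WT libraries, at 45.8% of the WT mean. The log2 fold changes were -2.58 ± 0.20, -4.87 ± 0.42 and -2.26 ± 0.40 for Foxf1, Foxl1 and Foxc2 (edgeR adjusted p = 0.0553, 0.0664 and 0.403).

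On chromosome 13, Foxq1 (31556134 to 31560976), Foxf2 and Foxc1 (31806633 to 31812476) also lie on the plus strand. Foxq1 had 0.551 CPM in Gli2/3 cKO against 2.27, 1.92 and 2.02 CPM in Hand2 cKO, with 0.989 and 1.49 CPM in WT. Foxc1, a mesenchymal forkhead gene needed for skull and eye development, had 29.1 CPM against 35.8, 33.4 and 33.2 CPM, with 23.2 and 10.6 CPM in WT. So the Foxf2 neighbour that was shown above with its promoter lay only 1.14-fold below the nearest Hand2 cKO library and above both WT libraries (log2 fold change -0.30, 95% interval -1.32 to 0.73). The interval is wide enough to hold a difference of more than 2-fold in the lower direction. Over the 6 cluster genes, 6 were outside and lower and 5 at least 2-fold lower, and both counts were the same without Hand2 cKO 2.

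Forkhead genes outside the clusters were mixed. Foxd2 had 6.10 CPM in Gli2/3 cKO against 15.6, 17.3 and 16.9 CPM, with 22.5 and 22.0 CPM in WT. Foxd1, which the study followed as a target, had 10.8 CPM against 26.9, 25.7 and 22.5 CPM, with 28.7 and 16.9 CPM in WT. Both were below every other library, whereas Foxp1 and Foxo1 lay within the Hand2 cKO range, with log2 fold changes of -0.056 (95% interval -0.80 to 0.68) and 0.0073 (-0.62 to 0.64).

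**Figure D3:**
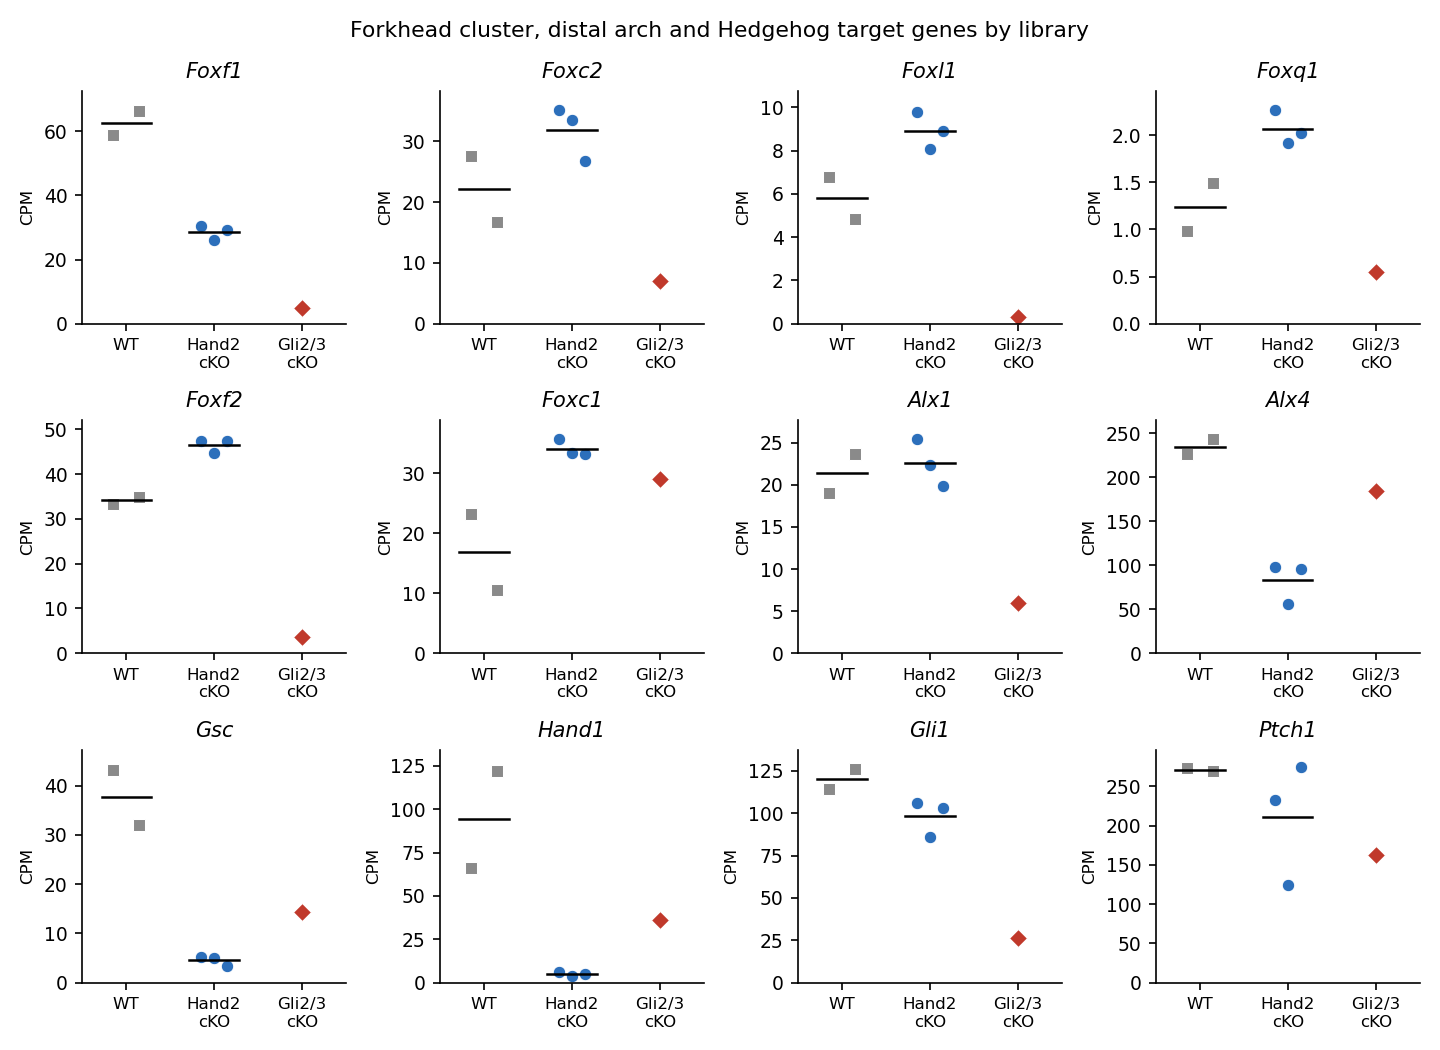
CPM (linear axes from 0) of 12 genes in the WT, Hand2 cKO and Gli2/3 cKO libraries, each point a library and each horizontal line the mean of 2 WT or 3 Hand2 cKO libraries. Foxf1, Foxc2, Foxl1, Foxq1, Foxf2, Alx1 and Gli1 are lowest in Gli2/3 cKO, Alx4, Gsc and Hand1 are lowest in Hand2 cKO, and Foxc1 and Ptch1 show little separation of the mutants.

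Among components of the Hedgehog pathway, only Gli1 stood far from the Hand2 cKO libraries. Of 5 ligand and release genes tested, 8 receptor and co-receptor genes and 10 genes acting inside the cell, 23 in all, 6 lay above and 5 below the Hand2 cKO range (backgrounds 33.0% and 21.4%), only Gli1 was at least 2-fold beyond it, and none was called by edgeR. Without Hand2 cKO 2, 6 lay above and 13 below, beside backgrounds over all genes of 43.0% and 35.1%. Gli2 and Gli3, deleted in Gli2/3 cKO, are among the genes below in both counts, where their place follows from the genotype. Shh, the ligand made by the epithelium, which keeps intact alleles, had 18.8 CPM in Gli2/3 cKO against 10.2, 10.2 and 12.6 CPM in Hand2 cKO, with 10.9 and 10.8 CPM in WT. It was thus highest in Gli2/3 cKO, 1.71-fold above the Hand2 cKO mean (log2 fold change 0.71 ± 0.20, edgeR adjusted p = 0.836).

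Ptch1, which binds the ligand and is itself switched on by the signal, had 163 CPM in Gli2/3 cKO against 233, 124 and 275 CPM, with 273 and 269 CPM in WT. The mutants overlapped only through Hand2 cKO 2, the lowest of all 6 libraries. The log2 fold change was -0.42 (95% interval -1.37 to 0.54), -0.66 without Hand2 cKO 2 (edgeR adjusted p = 0.219) and -0.61 with the length trend removed. Hhip, which binds and restrains the ligand, overlapped in the same way at 9.09 CPM against 14.8, 6.14 and 18.5 CPM, with a log2 fold change of -0.57, and -0.89 without Hand2 cKO 2. The signal transducer Smo and the Gli inhibitor Sufu lay within the Hand2 cKO range, with log2 fold changes of 0.049 (95% interval -0.48 to 0.58) and 0.12 (-0.39 to 0.63). Gas1, a co-receptor, was below the range at 170 CPM against 205 to 221 CPM.

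Genes of the distal arch lay mostly on the other side. Of 18 tested, 12 were above all 3 Hand2 cKO libraries (background 33.0%) and 2 below (background 21.4%). At least 2-fold higher were 4 (background 0.731%), among them Hand1, Hand2 and Gsc. Hand2 is deleted in Hand2 cKO, so its place in these counts follows from the genotype. The median log2 fold change of the 18 was 0.19, beside -0.01 over all genes tested. Gsc, the homeobox gene Goosecoid that lies downstream of endothelin signalling, had 14.4 CPM in Gli2/3 cKO against 5.31, 5.09 and 3.38 CPM, with 43.1 and 32.1 CPM in WT. Cited1, a transcriptional co-activator, had 24.4 CPM against 9.38, 12.2 and 8.36 CPM, with 69.1 and 70.8 CPM in WT. Both mutants were below WT for Gsc and Cited1, Hand2 cKO more so, at 12.2% and 14.3% of the WT mean against 38.2% and 34.9% in Gli2/3 cKO.

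Alx4 and Alx1, paired-type homeobox genes of facial mesenchyme, differed in direction. Alx4 had 184 CPM in Gli2/3 cKO against 97.5, 56.3 and 96.2 CPM, with 226 and 243 CPM in WT; the groups did not overlap (log2 fold change 1.09 ± 0.28, edgeR adjusted p = 0.753). Alx1 went the other way. It had 5.94 CPM in Gli2/3 cKO against 25.4, 22.4 and 19.9 CPM in Hand2 cKO, with 19 and 23.7 CPM in WT, so Hand2 cKO overlapped WT and Gli2/3 cKO was at 27.8% of the WT mean (log2 fold change -1.99 ± 0.28, edgeR adjusted p = 0.230).

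Other distal genes were close in both mutants. Dlx5, a homeobox gene of the ventral arch, had 134 CPM against 126, 136 and 123 CPM (log2 fold change -0.0040, 95% interval -0.71 to 0.70). Msx1, a homeobox target of BMP signalling, had 226 CPM against 225, 227 and 200 CPM (log2 fold change -0.012, 95% interval -0.61 to 0.58). For both genes the mutants overlapped, and the intervals do not show that they were at the same level.

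**Figure D4:**
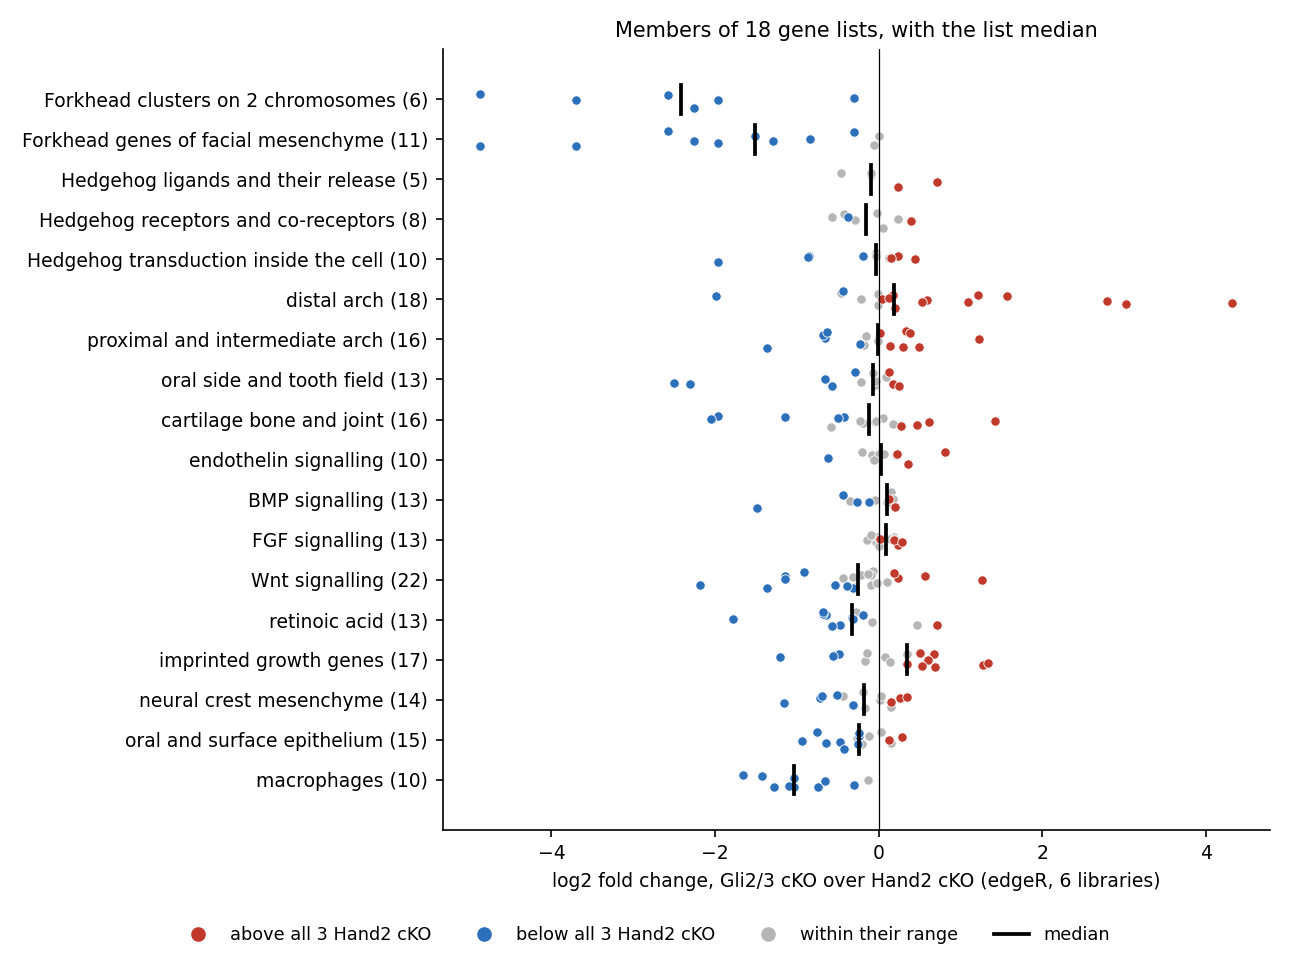
Log2 fold change (edgeR, Gli2/3 cKO over Hand2 cKO) of each tested member of 18 gene lists, red where the Gli2/3 cKO library lay above all 3 Hand2 cKO libraries, blue where below and grey within, with the number tested in brackets and a bar at the median. The forkhead lists lie to the left at medians of -2.42 and -1.51, the macrophage list at -1.03, and the other medians between -0.33 and 0.34.

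The remaining lists are read against the same backgrounds of 33.0% above and 21.4% below, or 43.0% and 35.1% without Hand2 cKO 2. Of 16 cartilage, bone and joint genes tested, 4 were above and 5 below the Hand2 cKO range, 1 and 2 of them at least 2-fold, and 8 were below without Hand2 cKO 2. Runx2, the master regulator of osteoblasts, had 2.28 CPM in Gli2/3 cKO against 9.71, 5.79 and 10.3 CPM, with 8.46 and 5.42 CPM in WT. Gdf5, a joint growth factor, had 0.708 CPM against 2.98, 2.84 and 2.60 CPM, with 2.06 and 1.07 CPM in WT. Gdf6, a related growth factor, went the other way with 34.1 CPM against 11.9, 11.6 and 13.2 CPM, and 24.3 and 44.1 CPM in WT. Runx2 and Gdf5 were lowest in Gli2/3 cKO and Gdf6 was lowest in Hand2 cKO. Sox9, the master regulator of cartilage, had 88.7 CPM against 75.8 to 97.6 CPM (log2 fold change -0.040, 95% interval -0.64 to 0.56).

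Of 13 genes of the oral side and tooth field, 3 were above and 5 below, 5 and 6 without Hand2 cKO 2, and 2 were at least 2-fold below. These were Pax9, needed for tooth and palate, with 2.79 CPM against 16.1, 9.28 and 14.5 CPM, and Osr2, a zinc-finger factor of palate and tooth, with 2.12 CPM against 11.3, 12.4 and 10.8 CPM. WT had 11.1 and 4.58 CPM for Pax9 and 12.7 and 3.03 CPM for Osr2. The WT libraries were far apart for both genes, with WT 4 much nearer to Gli2/3 cKO than WT 3. Of 16 proximal and intermediate arch genes, 7 were above and 5 below, 8 and 8 without Hand2 cKO 2, and 1 was at least 2-fold higher: Pou3f3, with 12.6 CPM against 5.04, 4.99 and 5.34 CPM, and 3.51 and 1.12 CPM in WT. The homeobox gene Nkx3-2 of the jaw joint had 2.71 CPM against 7.58, 5.46 and 7.04 CPM, with 7.99 and 7.66 CPM in WT.

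Signalling lists were mixed. Of 22 Wnt genes tested, 4 were above and 8 below the Hand2 cKO range, with 1 at least 2-fold higher and 2 lower. Without Hand2 cKO 2, 6 were above and 14 below. The ligand Wnt11 had 1.22 CPM in Gli2/3 cKO against 4.89, 6.31 and 4.52 CPM, with 3.19 and 2.19 CPM in WT. The agonist Rspo3 had 2.08 CPM against 5.78, 4.90 and 4.74 CPM, with 3.05 and 3.03 CPM in WT. The antagonist Dkk1 had 31.3 CPM against 12.1, 13.2 and 12.1 CPM, with 19.7 and 33.6 CPM in WT. Wnt11 and Rspo3 were thus high in Hand2 cKO and low in Gli2/3 cKO with WT between them, and Dkk1 was low in Hand2 cKO. The secreted antagonist Sfrp2 was lowest in Gli2/3 cKO at 36.2 CPM against 70.9 to 82.1 CPM, with 54.4 and 42.6 CPM in WT.

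Of 13 retinoic acid genes, 1 was above and 9 below the range, 1 of them at least 2-fold: Aldh1a2, which makes retinoic acid, with 3.11 CPM against 10.5, 8.98 and 11.2 CPM, and 14.3 and 6.91 CPM in WT. The list median was -0.33, and -0.19 without Hand2 cKO 2. Of 13 BMP genes 2 were above and 4 below (3 and 9 without Hand2 cKO 2), of 13 FGF genes 4 were above and none below (6 and 2), and of 10 endothelin genes 3 were above and 1 below (3 and 4). With all 3 Hand2 cKO libraries, no member of these lists was at least 2-fold beyond. The share of FGF genes above was close to the background. Fgf8, the epithelial growth factor of the proximal arch, had 18.1 CPM against 13.5, 23.5 and 15.2 CPM (log2 fold change -0.027, 95% interval -0.99 to 0.93).

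Of 17 imprinted growth genes tested, 8 were above and 4 below, beside backgrounds of 33.0% and 21.4%, and Igf2 alone was at least 2-fold higher. The list median was 0.34 in the fit of all 6 libraries and 0.10 without Hand2 cKO 2, so it rests in part on that library. Plagl1, an imprinted zinc-finger gene that the study followed as a target, had 156 CPM in Gli2/3 cKO, 122, 69.2 and 129 CPM in Hand2 cKO, and 464 and 347 CPM in WT. Both mutants were well below WT, and their log2 fold change was 0.50 (95% interval -0.33 to 1.33).

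Markers of other cells in the dissected tissue were examined beside these results. Macrophage markers were low in Gli2/3 cKO: 9 of 10 were below all 3 Hand2 cKO libraries (background 21.4%), none at least 2-fold, and they summed to 18.7 CPM against 28.0 to 31.4 CPM in Hand2 cKO and 29.3 and 38.5 CPM in WT. In bulk tissue, fewer cells of a type and less RNA per cell cannot be told apart. Erythroid markers summed to 3568 CPM against 3733 to 7237 CPM, with 6 of 12 below the range, 1 of them at least 2-fold. The WT sums were far apart at 2737 and 12998 CPM. Epithelial markers summed to 432 CPM against 442 to 455 CPM, with 8 of 15 below and 2 above, and to 485 and 494 CPM in WT. Endothelial markers, at 308 CPM against 253 to 310 CPM, lay within the range, with 319 and 372 CPM in WT. Neural crest mesenchyme markers lay within it only through Hand2 cKO 2, at 2352 CPM against 2953, 2306 and 2908 CPM, with 3011 and 2546 CPM in WT. Of 14 tested, 3 were above and 5 below (backgrounds 33.0% and 21.4%). Without Hand2 cKO 2 these counts were 4 and 9, beside backgrounds of 43.0% and 35.1%. Among them, Col1a2, a chain of type I collagen, had 166 CPM against 410, 276 and 382 CPM, with 420 and 305 CPM in WT. Muscle precursor genes summed to 254 CPM against 140 to 175 CPM, with 238 and 256 CPM in WT. The Gli2/3 cKO sum thus lay between the WT libraries, and the Hand2 cKO sums lay below both. Most of each sum was Ebf3, at 213 CPM against 94.1 to 132 CPM, with 188 and 193 CPM in WT. The place of the sums is thus largely that of Ebf3 and not of the list. Of 8 members tested, 3 were above the range and 1 below (backgrounds 33.0% and 21.4%), with a median log2 fold change of 0.035. The member below was Des, at 12.9 CPM against 15 to 22.6 CPM. Myod1 and Myf5 were below 2 CPM in every library. Neuronal markers summed to 40.6 CPM against 29.3 to 39.5 CPM, with 44.5 and 51.6 CPM in WT. Of 6 tested, only Dcx was above the range, at 5.98 CPM against 0.539 to 2.06 CPM, and none was below. Neural progenitor markers summed to 101 CPM against 133 to 146 CPM, with 124 and 103 CPM in WT. Most of these sums was Nes, at 83.8 CPM against 120 to 131 CPM. Only 3 members were tested, with 2 below the range and 1 above, Otx2, at 1.73 CPM against 0.996 to 1.17 CPM. The low sum therefore describes Nes more than the list. Pharyngeal endoderm markers summed to 22.3 CPM against 29.7 to 36.8 CPM, with 32.2 and 34 CPM in WT. The part of cell composition in the forkhead, distal arch and other differences was not tested.

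Lists of general cell state held no member at least 2-fold beyond all 3 Hand2 cKO libraries. Of 22 cell cycle genes 4 were above and 9 below, with a median of -0.11. Of 13 p53 target and apoptosis genes 8 were above and 2 below (backgrounds 33.0% and 21.4%), with a median of 0.17 and Cdkn1a, the cell cycle inhibitor, at 13.3 CPM against 7.99 to 8.87 CPM. Of 9 immediate early genes 2 were above and 4 below, 4 and 4 without Hand2 cKO 2, with Jun at 25.2 CPM against 36.6 to 39.3 CPM. Of 12 hypoxia and glycolysis genes 4 were above and 2 below, which became 10 and 2 without Hand2 cKO 2, so the count above rests on that library. Neither Cdkn1a nor Jun passed over all genes.

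Some large differences concern genes with near-identical copies, among which the authors' program had to divide reads. Ahcy, the enzyme that clears S-adenosylhomocysteine, had 18.7 CPM in Gli2/3 cKO against 141, 165 and 139 CPM, with 125 and 116 CPM in WT. A gene model of 99.7% identity over 81.9% of the transcript, Gm4737, had 420 CPM against 229, 282 and 251 CPM. The sum of Ahcy and its copies was 439 CPM in Gli2/3 cKO against 370, 447 and 390 CPM, within the Hand2 cKO range, so the low Ahcy value is uncertain. Fam177a was at 0 counts in Gli2/3 cKO against 11.8 to 15.1 CPM, at least 110-fold lower when set at a floor of 3 counts in that library. The gene model 1700047I17Rik2, identical over 98.5% of the transcript, had 8.18 CPM against 1.14, 3.45 and 0 CPM, and Ppp2r3c, of 98.3% identity over 67.6%, had 42.5 CPM against 47.5, 52 and 45.1 CPM. The sum of Fam177a and these copies was 50.7 CPM against 63.7, 67.4 and 56.9 CPM, still below all 3 Hand2 cKO libraries, but by far less, so the size of the Fam177a difference is uncertain. The other leading genes had no copy of at least 95% identity over at least 50% of the transcript.

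Pseudogenes made up 2.51% of the genes tested and 18 of the 98 and 31 of the 130 genes at least 2-fold beyond. Protein-coding genes other than those for ribosomal proteins contributed 67 and 88. Copies were searched for the leading genes alone, and the part of shared reads in the pseudogene values was not tested.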

How the data were processed

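RNA-seq of polyA RNA from E10.5 MNPs was analysed. The deposited values are estimated counts per transcript. Per library, 47.7% to 56.8% of all values, those at 0 included, are not whole. The authors made the counts by mapping paired-end reads to mm10 in Strand NGS, with DESeq2 named for their comparisons. Labels and methods name different sequencers, and whether counting used strand is not stated, so overlapping and antisense genes cannot be told apart. The 105129 transcripts were summed by gene symbol and rounded to whole numbers, where the design had foreseen plain counts. Of the transcripts, 103635 matched GENCODE M21. Total depth per library was 21420197 to 53326697.

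CPM in the text are relative to the library total. Fold changes and tests came from edgeR 4.0.16 (R 4.3.3, TMM factors, quasi-likelihood test, Benjamini-Hochberg adjustment over 13410 genes) fitted to 6 libraries in 3 groups, which share 1 estimate of the spread, with 3 residual degrees of freedom. The lone Gli2/3 cKO library is assumed to vary like the other groups. The procedure was run on simulated data in which every library had the same spread for a given gene. That run therefore cannot test the assumption on the lone library. Replicates differed by more than sampling noise (chi-square per degree of freedom 24 to 225). DESeq2 1.42.0, other scalings, other filters, removal of the length trend and leaving out each replicate were the alternatives. Near copies were found with minimap2 among the reference transcripts.

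The genes named were, per direction, the 12 with the smallest p among those outside the Hand2 cKO range with a mean of at least 2 CPM, leaving out numbered gene models, pseudogenes, ribosomal protein genes and sex-linked genes, then at most 4 genes of each list, taken by p, and Hedgehog and forkhead members as needed. Some list members with small differences, and the markers of other cells, were named after their values were seen. The comparison, its members and the gene lists were chosen with earlier results of these data known. The gene called higher is not reported here. The remaining 4 samples were not analysed here.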

Additional observations from a re-analysis of the deposited data

How the results depend on the processing

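The 2 edgeR calls became 144 by DESeq2 (41 higher, 103 lower), 39 with no filter on low counts, 6 with filterByExpr and 30 with the length trend removed. They ranged from 0 to 28 when each replicate was left out: leaving out Hand2 cKO 3 gave 0, Hand2 cKO 2 gave 28 and WT 4 gave 4. Other scaling factors gave 2 calls. The cause of these differences was not tested. The 7288 genes outside the Hand2 cKO range became 11968 with no filter and 7861 to 10388 when a Hand2 cKO replicate was left out. The 228 genes at least 2-fold beyond became 828 with no filter, 114 with at least 1 CPM required in all 4 libraries, and 150 with 1 CPM added instead of 0.1. They ranged from 255 to 355 when a Hand2 cKO replicate was left out, where fewer libraries set the range. The share of these genes with Gli2/3 cKO farther from WT was 66.2%, and 56.3% to 68.3% when a replicate was left out, lowest without Hand2 cKO 3. Among log2 fold changes of the named genes under each alternative, 1728 kept direction and side of the threshold, 82 newly passed it, 9 no longer did (5 of them for Foxf2), and 19 values of 10 genes changed sign, all of them genes that edgeR did not call. Smo turned to -0.016 with the length trend removed. Foxo1 turned to -0.033 by DESeq2, -0.027 with no filter, -0.022 with filterByExpr and -0.29 with the length trend removed. When a replicate was left out, the log2 fold change ran from -0.23 to 0.016 for Disp1, -0.33 to 0.059 for Scube3, -0.054 to 0.13 for Smo, -0.0085 to 0.41 for Cdon, -0.13 to 0.033 for Boc, -0.21 to 0.069 for Gpr161, -0.20 to 0.038 for Foxp1, -0.13 to 0.12 for Foxo1, -0.24 to 0.22 for Maf and -0.12 to 0.42 for Hoxb3. Of the list medians, 409 moved by less than the spread and 11 by more. No paired analysis was possible because the groups compared share only replicate number 3. Depth limits the Gli2/3 cKO library, where 3 counts equal 0.118 CPM.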
